A study of Homo sapiens with 22 samples.

Results

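Cluster 5 of the untreated WM989 experiment held 1118 of the 12531 profiled cells, and 1118 of the 9688 cells in the 8 clusters that the authors labelled drug-susceptible. Its members were chosen by that cluster label alone, and the 7 genes given to mark it were TRIM63, CST1, SLC45A2, MYC, HSP90AA1, RLBP1 and OSGIN1. The other 8570 drug-susceptible cells, in clusters 0, 1, 3, 4, 6, 7 and 10, served as the reference, and 2843 further cells lay in 3 primed clusters. Since the cluster was made from the same counts that are described here, no gene was tested between it and the reference.

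WM989 is a BRAF-mutant human melanoma cell line, and in this experiment it was left untreated and carried expressed lineage barcodes. The cells had been sorted either as a mixed population or as high in the surface proteins EGFR and NGFR, grown through a few doublings, and loaded on the droplet chip with each culture split over a pair of chip wells. The 8 chip wells (numbers 1 to 4 belong to r1, 5 to 8 to r2) therefore share cultures and are not independent, and the cell labels do not give the sort of a well. A separate treatment experiment held 8 libraries of barcoded WM989 cells that were untreated or received TGFB1, the TGFB receptor inhibitor LY2109761 or the PI3K inhibitor GDC-0941, with a replicate r1 and r2 of each, where the 4 conditions of a replicate were split from the same well of cells. GEO's labels name 4 of these libraries Mix and 4 Primed, while the cell table names them r1 and r2, and the link between these names was not settled, so that r1 and r2 may differ in their starting cells. One library of untreated WM983B cells, another human melanoma line, was also profiled.

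Melanoma lines are mixtures of cell states that differ in how they respond to BRAF inhibitors, and the authors' labels sort the cells here into drug-susceptible and primed clusters. In melanocytes and melanoma cells the transcription factor MITF drives pigment genes, and the BRAF and ERK kinases drive feedback genes such as the DUSP and SPRY families. The transcription factor MYC is known for driving ribosome biogenesis, and HSP90 is a chaperone that folds many kinases.

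The 8 wells held between 35882876 and 177318308 UMIs (unique molecular identifiers, each counting 1 captured RNA molecule), and cells had between 4001 and 9994 detected genes. Cluster 5 cells had a median of 46602.5 UMIs and 6470.5 genes, against 53973 UMIs and 6855 genes in the reference. Their median mitochondrial percent was 13.2%, against 14.2%. In all, 19 cell barcodes occurred in more than 1 well, and 1 of them belonged to a cluster 5 cell. Of 14 marker genes of blood, endothelial, epithelial and stromal cells, 12 were under 1 CPM (a gene's share of the summed UMIs, scaled as counts per 1000000) in cluster 5, and CD3E, KRT5 and HBB had no UMI. The lysosomal gene CD68 accounted for most of the rest, with 37.6 CPM in cluster 5 and 45.6 CPM in the reference. Their summed level lay between 23.7 and 64.1 CPM over the wells in cluster 5 and between 31.6 and 70.6 CPM in the reference.

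The share of drug-susceptible cells that lay in cluster 5 was 11.5% (exact 95% interval 10.9 to 12.2%). It was 10.1% in r1 and 13.7% in r2. By well it was 3.61% in well 1 (7 cells), 5.63% in well 2 (36 cells), 11.1% in well 3 (164 cells), 10.9% in well 4 (389 cells), 22.9% in well 5 (19 cells), 18.7% in well 6 (25 cells), 13.9% in well 7 (269 cells) and 12.7% in well 8 (209 cells). The cluster was thus present in every well, lowest in wells 1 and 2 of r1 and highest in wells 5 and 6 of r2. These 4 wells were also those with the most primed cells, at 56.9%, 62.4%, 79.7% and 76.9% of all their cells, against 6.85 to 9.42% in the other wells. A lineage barcode UMI was found in 94.0% of cluster 5 cells and 94.2% of the reference, and well 2 had the lowest cluster 5 share at 66.7%. All intervals given here cover counting error only.

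In the following, a gene is called higher or lower when its pooled CPM differed at least 1.5-fold between cluster 5 and the reference and it differed in the same direction in each of the 6 wells with at least 20 cluster 5 cells. Among 5678 genes with at least 20 CPM in either group, 45 were called higher (0.793%) and 206 lower (3.63%). Of the 206 lower genes 112 were under 20 CPM in cluster 5 and thus passed this limit only through the reference, so that they could hardly come out otherwise, and 5 of the 45 higher genes, RCL1 and TFRC among them, passed it only through cluster 5. Over all tested genes, called or not, 3119 had a ratio above 1 and 2559 below 1. TRIM63 and EIF4A3 had the highest ratios, and only these 2 genes were called higher when a 2-fold difference was asked for. In comparisons with each of the other 7 clusters on its own, 665 genes had their highest CPM in cluster 5, but none was 1.5-fold above every other cluster in this way. Against every other cluster 9 genes were lower by that fold: VGF, CDKN2D, HJURP, A2M, DDIT4, ETV1, SPRY1, CDK1 and LMO4. Of these only VGF, DDIT4 and LMO4 were at 20 CPM or more in cluster 5, and the rest passed that limit only through the reference. A2M, a protease inhibitor (10.1 against 30.8 CPM), and LMO4, a LIM-only cofactor (38.2 against 66.6 CPM), were named after their values were seen.

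TRIM63 (chr1:26051301-26068436, minus strand, hg38) encodes a RING-finger ubiquitin ligase best known from muscle atrophy. In cluster 5 its level was 237, 135, 86.0, 103, 177, 174, 122 and 113 CPM in wells 1 to 8, and in the reference it was 54.9, 51.9, 50.9, 51.9, 79.4, 67.4, 56.9 and 60.3 CPM. Every cluster 5 value lay above every reference value. TRIM63 was given as a marker of a cluster made from these counts, so this agreement over wells was largely set by that choice. Pooled, it was 115 CPM against 54.7 CPM, a ratio of 2.10, with 1.98 in r1 and 2.16 in r2. After thinning each cell to 10000 UMIs, 55.6% of cluster 5 cells, 35.1% of reference cells and 5.59% of primed cells held a TRIM63 UMI, and without thinning these shares were 91.2%, 77.8% and 21.4%. The thinned shares compare the groups at equal depth, since primed cells had a median of 58253 UMIs over all wells but fewer UMIs than the reference within each of the 8 wells. TRIM63 was nevertheless not highest in cluster 5, since cluster 10 had 136 CPM.

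SLC45A2 (chr5:33944623-33984693), a transporter of the melanosome membrane, was highest in cluster 5 of the 8 clusters. Its level was 121, 114, 105, 110, 143, 130, 105 and 108 CPM in wells 1 to 8 and 62.7, 59.4, 62.4, 62.1, 106, 105, 70.4 and 68.9 CPM in the reference. Within each well cluster 5 was above the reference, and the gap was smallest in well 6. The pooled values were 110 and 66.2 CPM, a ratio of 1.66. RLBP1 (chr15:89209869-89221614), which encodes a retinaldehyde-binding protein, was likewise highest in cluster 5, at 70.6 CPM against 48.7 CPM. Its ratio of 1.45 did not reach the 1.5-fold limit, although cluster 5 was above the reference in all 8 wells.

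MYC had 279, 200, 199, 165, 355, 337, 333 and 370 CPM in cluster 5 of wells 1 to 8 and 166, 117, 190, 131, 188, 173, 182 and 190 CPM in the reference. The 4 wells of r2 were all high in cluster 5, whereas wells 3 and 4 of r1 lay near the reference, with ratios of 1.04 and 1.26. Pooled over wells MYC was 1.59 times the reference, while r1 alone gave 1.22 and r2 alone 1.88. Clusters 6 and 10 had more MYC, with 362 and 360 CPM against 259 CPM in cluster 5. Of the other MYC and MAX network genes, MXD4, an antagonist of MYC, was called lower with 11.6 against 22.0 CPM, and the remaining 4 of 6 tested genes were not called. MXD4 passed the 20 CPM limit only through the reference, and over all genes 0.793% were called higher and 3.63% lower.

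HSP90AA1, the stress-inducible HSP90, had 3785 CPM in cluster 5 and 2199 CPM in the reference. Over the wells it lay between 3466 and 3991 CPM in cluster 5 and between 1921 and 2590 CPM in the reference, so the groups did not overlap. Cluster 6 was slightly above cluster 5 with 3974 CPM. OSGIN1, an oxidative stress response gene, had 21.9 against 13.6 CPM, but in well 6 it was below the reference (10.7 against 12.7 CPM), so it was not called. Its highest level was in cluster 10, with 40.3 CPM.

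CST1 (chr20:23747562-23751268) encodes cystatin SN, a secreted inhibitor of cysteine proteases, and its place among the marker genes rested on r1. In r1 it had 18.5, 27.2, 55.0 and 31.7 CPM in cluster 5 of wells 1 to 4 and 19.2, 17.1, 19.95 and 20.4 CPM in the reference. In r2 it was low in both, with 5.05, 1.04, 2.39 and 1.202 CPM in wells 5 to 8 of cluster 5 and 1.89, 1.08, 2.16 and 1.97 CPM in the reference. The pooled ratio of 1.70 thus came from a ratio of 2.03 in r1, while it was 1.04 in r2. It rested largely on well 3, since the log2 ratio of 0.77 was 0.29 without that well and 0.39 with equal weight per well. The share of cells with a CST1 UMI was 25.8% in cluster 5 and 25.1% in the reference, and 8.77% and 7.76% after thinning, against 0.844% in primed cells. CST1 and CST4 are close paralogs, and how reads matching both were counted was not checked.

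The marker genes were given with a cluster made from these same counts, so their ratios above 1 are no independent check of the label. All 7 marker genes had a pooled ratio above 1, and TRIM63, SLC45A2, MYC and HSP90AA1 were called higher, but TRIM63, CST1 and OSGIN1 were highest in cluster 10 and MYC and HSP90AA1 in cluster 6, which leaves SLC45A2 and RLBP1 highest in cluster 5. The marker genes do not set cluster 5 apart from every other drug-susceptible cluster.

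**Figure D1:**
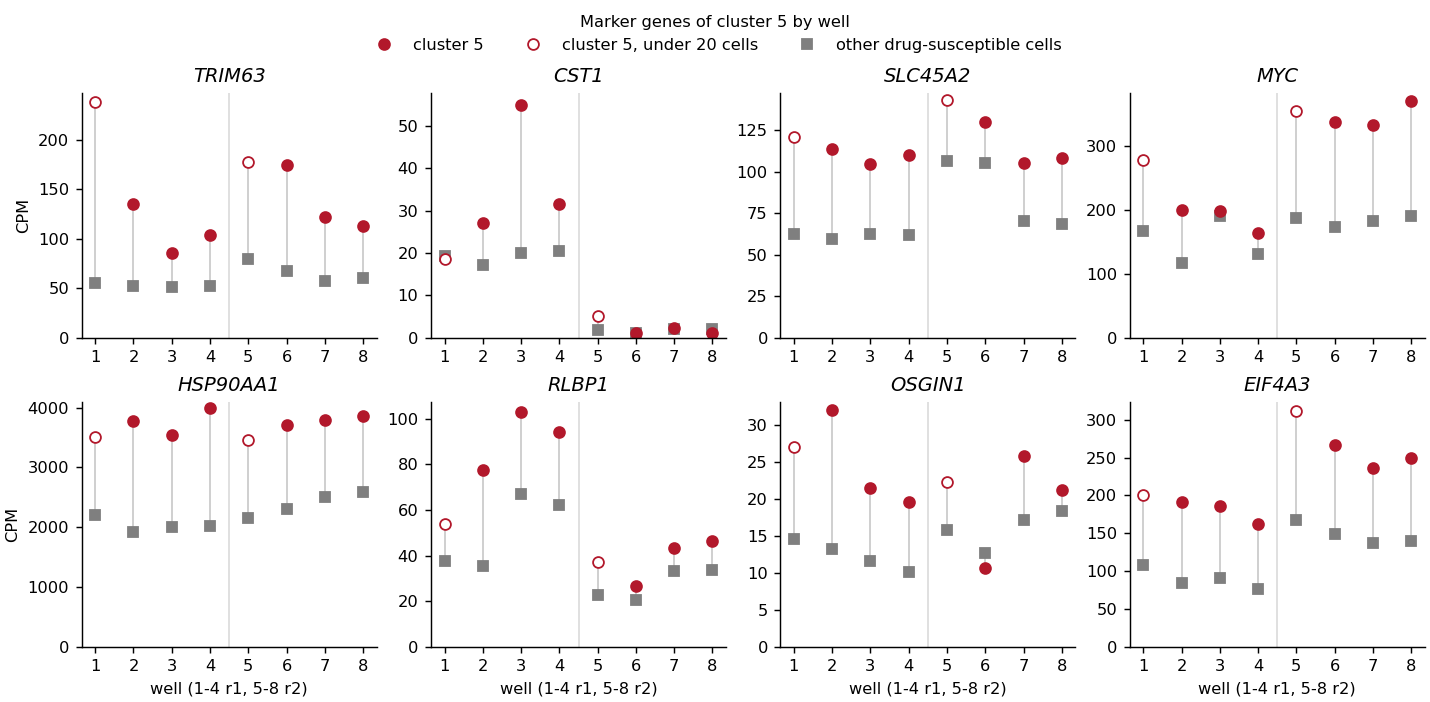
Level of the 7 marker genes and EIF4A3 in each of the 8 wells (x axis, wells 1-4 of r1 and 5-8 of r2; y axis, CPM of the summed UMIs, linear and from 0), for cluster 5 (red circles, open where the well held under 20 cluster 5 cells) and the other drug-susceptible cells (grey squares). TRIM63, SLC45A2, HSP90AA1 and EIF4A3 were above the reference in all 8 wells, MYC was near it in wells 3 and 4, and CST1 was near or below it in wells 1 and 6 to 8.

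Among the genes called higher, the 15 with the highest ratio in cluster 5 were TRIM63, EIF4A3, PTTG1, RCL1, HSP90AA1, PNO1, SLC45A2, DCAF13, ZFC3H1, RRP9, DDX39A, CD3EAP, WDR3, HSP90AB1 and JARID2. EIF4A3 (chr17:80134369-80147151) is the helicase of the exon junction complex, and its level was 210 CPM in cluster 5 against 105 CPM in the reference. By well it was 200, 192, 186, 163, 312, 267, 237 and 250 CPM in cluster 5 and 108, 84.8, 91.5, 76.0, 167, 149, 138 and 140 CPM in the reference. The levels of both groups were higher in r2, and within each well cluster 5 was between 1.72 and 2.26 times the reference.

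RCL1, PNO1, DCAF13, RRP9 and WDR3 take part in making the small ribosomal subunit, and CD3EAP (now POLR1G) is a subunit of RNA polymerase I. RCL1 had 30.5 against 17.0 CPM, PNO1 86.8 against 52.0 CPM and RRP9 45.5 against 27.7 CPM. RCL1, RRP9, CD3EAP, ZFC3H1, HSP90AB1 and JARID2 were highest in cluster 5 of the 8 clusters, as were EIF4A3 and SLC45A2. HSP90AB1 was nearly level between clusters 5 and 6, with 1642 and 1640 CPM. PNO1, DCAF13, WDR3, DDX39A, HSP90AA1 and PTTG1 came second to cluster 6. PTTG1, the securin that holds back chromatid separation, had 479 against 256 CPM, and 564 CPM in cluster 6.

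Promoter sequences were taken from RefSeq (GRCh38.p14), from 250 bases before to 50 bases after the gene start, for 13 of these 15 genes. DCAF13 and SLC45A2 were not matched, nor were the marker genes CST1 and MYC. Of the 6 leading higher genes that hold a motif searched for, 4 are shown: TRIM63 as the first marker, and EIF4A3, RCL1 and RRP9 as genes highest in cluster 5 whose E-boxes lie at different places. The palindrome CACGTG is an E-box that MYC and MAX bind, though not they alone, and TCATGTGA is a sequence bound by MITF. Which factor binds a match was not tested. Capitals mark the motif, and each sequence is written 5′ to 3′ along the gene's strand.
TRIM63, chr1:26067581-26067880, minus strand: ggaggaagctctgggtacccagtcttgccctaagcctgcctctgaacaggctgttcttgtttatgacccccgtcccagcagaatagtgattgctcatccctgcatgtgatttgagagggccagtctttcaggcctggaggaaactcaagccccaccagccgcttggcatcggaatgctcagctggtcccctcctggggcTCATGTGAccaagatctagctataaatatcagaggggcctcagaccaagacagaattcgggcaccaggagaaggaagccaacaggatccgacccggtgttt
EIF4A3, chr17:80147079-80147378, minus strand: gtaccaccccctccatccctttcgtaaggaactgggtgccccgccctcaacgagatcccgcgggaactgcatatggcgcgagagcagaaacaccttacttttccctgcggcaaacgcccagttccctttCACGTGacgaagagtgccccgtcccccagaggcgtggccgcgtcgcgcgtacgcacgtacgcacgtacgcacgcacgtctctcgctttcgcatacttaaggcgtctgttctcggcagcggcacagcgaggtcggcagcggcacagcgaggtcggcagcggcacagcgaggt
RCL1, chr9:4792694-4792993, plus strand: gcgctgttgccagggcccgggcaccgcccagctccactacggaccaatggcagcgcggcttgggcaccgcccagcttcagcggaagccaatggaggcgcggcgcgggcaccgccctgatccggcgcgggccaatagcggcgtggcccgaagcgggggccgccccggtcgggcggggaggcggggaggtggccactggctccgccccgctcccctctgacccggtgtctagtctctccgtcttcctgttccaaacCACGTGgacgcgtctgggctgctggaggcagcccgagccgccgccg
RRP9, chr3:51941855-51942154, minus strand: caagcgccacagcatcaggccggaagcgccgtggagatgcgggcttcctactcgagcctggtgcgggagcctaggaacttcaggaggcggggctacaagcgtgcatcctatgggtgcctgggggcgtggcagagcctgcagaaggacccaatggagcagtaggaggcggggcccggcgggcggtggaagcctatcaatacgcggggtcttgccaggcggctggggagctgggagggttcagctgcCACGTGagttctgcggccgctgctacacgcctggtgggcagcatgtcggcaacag
In the TRIM63 window TCATGTGA began at -51 from the start base. The RefSeq start used for TRIM63 lies inside the gene span given above, downstream of its outermost annotated start, so this window is that of an inner start. The E-box began at -121 in EIF4A3, at 4 bases after the start base in RCL1 and at -5 in RRP9.

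On both strands, CACGTG was found in 5 of the 13 matched promoters of leading higher genes (38.5%), namely EIF4A3, RCL1, PNO1, RRP9 and CD3EAP. It was present in 1 of 12 matched promoters of the leading lower genes (8.33%), in 11 of 26 of the nucleolar and MYC target genes (42.3%), and in 7.43% of all 27305 promoters. The 27305 promoters were not limited to genes expressed in these cells, and no share over the tested genes was computed. The nucleolar list was drawn up to hold MYC targets, so its share is no independent finding. The TCATGTGA sequence was in 1 of the 13 leading higher promoters (7.69%), in 1 of the 12 leading lower ones (8.33%, CENPA) and in 1.01% of all promoters. The sequence GAANNTTC, the core of a heat shock element, was in 6.87% of all promoters, in 6 of 21 promoters of heat shock and HSP90 chaperone genes (28.6%) and in 0 of the 13 leading higher promoters. The HSP90AA1 window (chr14:102139700-102139999, minus strand) lies wholly upstream of its gene span (chr14:102080742-102139699). Starts inside that span were not searched, so the lack of a match there does not describe every HSP90AA1 promoter. A match describes the letters of these windows only.

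**Figure D2:**
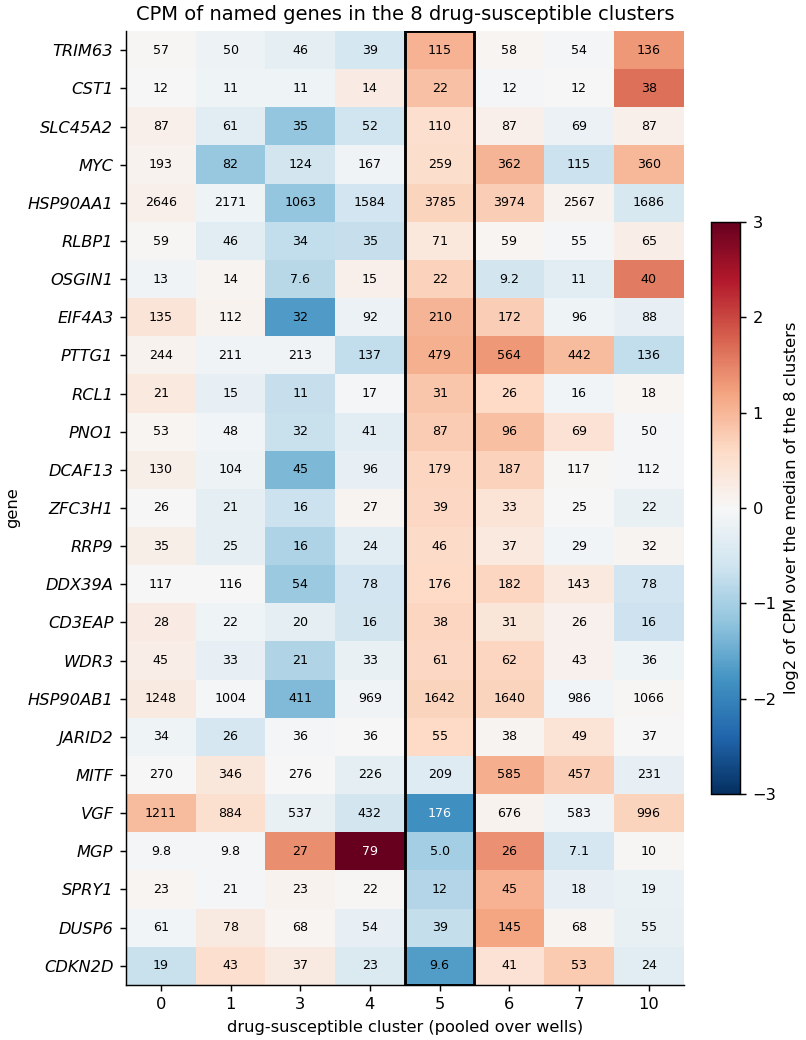
CPM of the marker genes, the leading higher genes and 6 genes low in cluster 5 (rows) in the 8 drug-susceptible clusters (columns), pooled over wells, with the number in each cell giving the CPM and the colour its log2 value over the median of the 8 clusters. Cluster 5 (boxed) had the lowest VGF, MGP, SPRY1, DUSP6, MITF and CDKN2D, and shared its high genes mostly with cluster 6 or cluster 10.

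Nucleolar and MYC target genes were mostly above the reference in cluster 5. Of 29 tested genes 6 were called higher and none lower, beside 0.793% and 3.63% of all genes. A ratio above 1 was found for 27 of the 29, beside 3119 of all 5678 tested genes. The 6 genes were RRP9, NCL, HSPD1, NOP58, NPM1 and TFRC. NCL, which encodes the nucleolar protein nucleolin, had 1452 against 918 CPM, and NPM1, which encodes nucleophosmin, had 2234 against 1462 CPM. The median log2 ratio of the list was 0.35, beside 0.03 over all genes tested. Of the 29 genes 13 had their highest level in cluster 5, beside 665 of all 5678. CDK4 (log2 ratio 0.06) and SRM (0.09) lay close to the reference.

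Chaperone genes of the cytosol and mitochondria were mostly above it as well. Of 19 tested heat shock and HSP90 chaperone genes 6 were called higher, namely HSP90AA1, HSP90AB1, HSPA4, HSPD1, AHSA1 and FKBP4, beside 0.793% of all genes, and the median log2 ratio was 0.49, beside 0.03 over all genes. AHSA1, an activator of the HSP90 ATPase, had 87.2 against 57.5 CPM, and the HSP90 co-chaperone FKBP4 had 176 against 117 CPM. DNAJB1, a stress-induced HSP70 co-chaperone, was called lower with 35.5 against 59.2 CPM (3.63% of all genes were), and the stress-induced HSPA1A was not called (37.5 against 48.2 CPM). All 8 subunits of the TRiC chaperonin, which folds actin and tubulin, had a ratio above 1, beside 3119 of all 5678 tested genes. Their median log2 ratio was 0.45, and CCT2 was called higher (375 against 244 CPM). Among 15 chaperone genes of the endoplasmic reticulum none was called higher, and HERPUD1 was called lower (32.0 against 50.3 CPM).

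Of 19 tested melanocyte genes SLC45A2 was called higher and MITF lower, 1 gene each way, beside 0.793% and 3.63% of all genes. MITF had 175, 188, 190, 199, 249, 251, 231 and 208 CPM in cluster 5 of wells 1 to 8 and 317, 273, 307, 305, 303, 322, 370 and 372 CPM in the reference. The lowest reference value was above the highest cluster 5 value, and the pooled level of 209 CPM was the lowest of the 8 clusters. The pigment genes DCT (637 against 503 CPM), PMEL (2795 against 2083 CPM) and MLANA (1863 against 1662 CPM) were above the reference in all 6 wells but under the 1.5-fold limit. Of the 6 genes below 1, SOX10, a melanocyte transcription factor gene (121 against 131 CPM), and TYR, which encodes tyrosinase (73.4 against 78.8 CPM), lay close to the reference. Lysosomal and nutrient-sensing genes of the MITF and TFE factors had no call other than MITF among 18 tested, near the background of 3.63%, and their median log2 ratio was 0.03.

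Of 13 tested output and feedback genes of ERK 6 were called lower and 1 higher, beside 3.63% and 0.793% of all genes. A ratio above 1 was found for 3, beside 3119 of all 5678 tested genes, and the median log2 ratio was -0.57. SPRY1 and ETV1 passed the 20 CPM limit only through the reference, and 4 of the 6 were at 20 CPM or more in both groups. IER3, an early response gene, had 135 against 312 CPM. DUSP6, a phosphatase that acts on ERK, had 18.5, 23.1, 27.7, 26.1, 46.8, 49.2, 54.3 and 56.7 CPM in wells 1 to 8 of cluster 5 and 56.2, 47.2, 58.4, 57.1, 81.9, 104, 98.9 and 102 CPM in the reference. Levels were higher in r2 in both groups, and cluster 5 was below the reference in every well. SPRY1 and SPRED1, both inhibitors of the pathway, the transcription factor gene ETV1 and FOSL1, an AP-1 subunit, were the other 4. MYC was the 1 gene of this list called higher, and the cyclin gene CCND1 (494 against 439 CPM) was not called.

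Of 21 listed primed-state genes 15 were under the 20 CPM limit and not tested. Of the 6 that passed it VGF, FN1 and FOSL1 were called lower and none higher, beside 3.63% and 0.793% of all genes. VGF (chr7:101162509-101165569) encodes a secreted neuropeptide precursor, and its level in cluster 5 was 576, 280, 96.1, 135, 381, 359, 175 and 184 CPM in wells 1 to 8. In the reference it was 1251, 1235, 907, 664, 558, 717, 761 and 771 CPM. The groups overlapped only through well 1, which held 7 cluster 5 cells. Pooled, VGF was 4.64-fold lower in cluster 5 (176 against 816 CPM), and primed cells had 1371 CPM. FN1, which encodes fibronectin, had 49.1 against 105 CPM. Of 6 tested genes listed for the intermediate state, MGP, FN1 and NFATC2 were called lower, beside the same 3.63%, but MGP passed the 20 CPM limit only through the reference. MGP, which encodes matrix Gla protein, had 4.99 against 21.8 CPM. Of the other clusters, cluster 4 had the most MGP (79.4 CPM) and cluster 7 the least (7.08 CPM), so the pooled reference hides a wide range.

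In the list of ATF4 and the integrated stress response SLC7A5, an amino acid transporter gene, was called higher (52.8 against 34.6 CPM), and DDIT4 (41.8 against 95.6 CPM), DDIT3 (34.0 against 54.6 CPM) and PPP1R15A (39.1 against 60.6 CPM) were called lower, out of 13 tested, beside 0.793% and 3.63% of all genes. None of 18 tested NRF2 and oxidative stress genes was called in either direction. TRIM63 was the only called gene among 7 tested FOXO and muscle-atrophy genes. FBXO32, the other classic ubiquitin ligase gene of muscle atrophy, had 121 against 134 CPM. Calls were limited to 1 lower gene each among 14 tested glycolysis and hypoxia genes (SLC2A3), 6 AP-1 and immediate early genes (FOSL1) and 8 interferon-stimulated genes (IFIT3), and SLC2A3 and IFIT3 passed the 20 CPM limit only through the reference. None of the 13 mitochondrially encoded genes and none of the 3 tested cystatins was called.

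**Figure D3:**
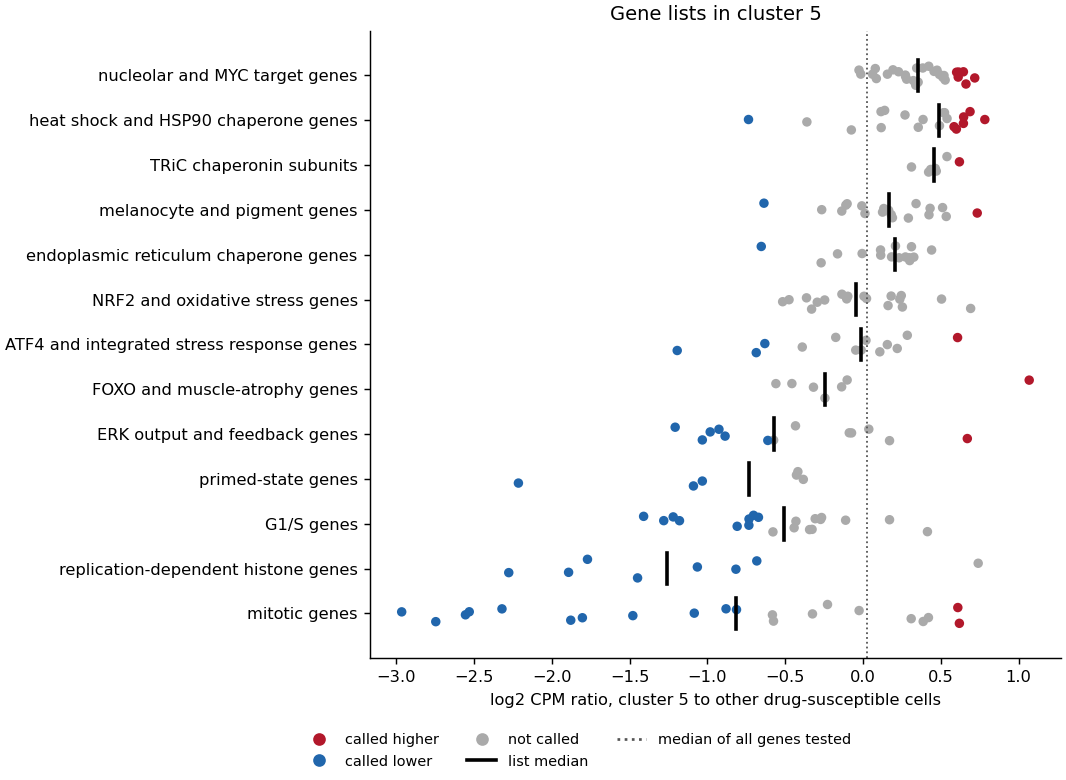
log2 ratio of CPM in cluster 5 to the other drug-susceptible cells (x axis) for each tested gene (points) of 13 gene lists (rows), with genes called higher in red and lower in blue, the list median as a bar and the median of all genes tested as a dotted line. The medians of the nucleolar, heat shock and TRiC lists lay to the right of the dotted line, and the ERK output, primed-state and cell cycle lists to the left.

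By the authors' phase calls 52.4% of cluster 5 cells were in G1, 25.0% in S and 22.6% in G2M. In the reference the shares were 22.0%, 46.9% and 31.1%. The G1 share of cluster 5 was 42.9%, 33.3%, 56.1%, 50.6%, 36.8%, 52.0%, 54.3% and 55.5% in wells 1 to 8, and that of the reference was 24.1%, 31.2%, 28.8%, 24.7%, 17.2%, 15.6%, 14.7% and 14.98%. Cluster 5 was above the reference in each well, with the smallest gap in well 2. Clusters 4 and 10 had higher G1 shares (73.3% and 82.8%), and clusters 6 and 7 were called almost wholly G2M. When phase was called anew after thinning each cell to 10000 UMIs, cluster 5 had 39.0% of cells in G1, 20.8% in S and 40.2% in G2M, against 25.1%, 35.4% and 39.5% in the reference. The G1 share of cluster 5 in r2 was then 22.2%, where the authors' calls gave 54.0%, and in well 5, with 19 cluster 5 cells, it was 10.53% against 15.6% in the reference, the reverse of the authors' calls. Thus the phase of many of these cells depended on how it was called.

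Most of the 15 genes with the lowest ratio were cell cycle genes. These 15 were HJURP, FAM83D, CDK1, CCNA2, TOP2A, UBE2C, CKAP2L, CDCA8, AURKB, HIST1H1A, CDCA5, VGF, MGP, SPC25 and CENPA. Only TOP2A, UBE2C and VGF were at 20 CPM or more in cluster 5, and the rest passed that limit only through the reference. HJURP, the chaperone that loads the centromeric histone CENPA, had 2.04 against 28.3 CPM and was 13.9-fold lower. CDK1, the kinase that starts mitosis, had 8.53, 7.30, 5.13, 5.09, 8.85, 10.0, 12.3 and 8.30 CPM in wells 1 to 8, against 47.2, 40.05, 45.9, 39.3, 78.7, 97.5, 89.2 and 94.2 CPM in the reference. Every cluster 5 value lay far below every reference value, although 22.6% of these cells were called G2M. CDK1 was chosen for its low pooled ratio and its direction in 6 wells, so this agreement over wells was largely set by that choice. TOP2A, the DNA topoisomerase of dividing cells, had 20.4 against 120 CPM. HJURP, CDK1, CKAP2L, CDCA5, VGF and MGP were lowest in cluster 5 of the 8 clusters. Cluster 4 was below cluster 5 for FAM83D, CCNA2, TOP2A (11.9 CPM), UBE2C (22.2 against 31.2 CPM), CDCA8, AURKB, SPC25 and CENPA. HIST1H1A was lower in cluster 10. Low levels of most of these genes were thus not particular to cluster 5.

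Of 21 tested mitotic genes 11 were called lower and 2 higher, beside 3.63% and 0.793% of all genes, and 6 of the 11 were at 20 CPM or more in both groups. The 2 higher genes were CCNB2, a B-type cyclin (72.4 against 47.5 CPM), and CDKN3, a phosphatase gene (159 against 104 CPM). CCNB1 (100 against 80.8 CPM), CDC20 (90.2 against 69.0 CPM) and BIRC5 (233 against 174 CPM), which also act in mitosis, were not called. In the list of G1/S genes 9 of 20 were called lower, among them RRM2, CDC45, CLSPN and E2F1, and 7 of 8 replication-dependent histone genes were called lower, with a median log2 ratio of -1.26. At 20 CPM or more in both groups were 7 of these 9 and 5 of these 7. Of the genes used to score phase, 17 of 34 S genes and 29 of 47 G2M genes were called lower, 9 and 14 of them at 20 CPM or more in both groups, and 1 G2M gene higher. CDKN2D, an inhibitor of the G1 kinases, was 9.58 against 33.6 CPM, and it was below the reference in all 8 wells. It passed the 20 CPM limit only through the reference.

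Phase calls are made from S and G2M scoring genes that include most of the mitotic genes, CDK1 and TOP2A among them, so the values of these genes within a phase are not independent of the call and are given as a description. Among cells called G1 all 21 mitotic genes had a ratio above 1, whereas 7 did among S cells and 4 among G2M cells. In G1 cells TOP2A had 16.0 CPM in cluster 5 and 6.98 CPM in the reference, while in G2M cells it had 39.0 and 258 CPM. CDK1 had 4.72 against 99.7 CPM among G2M cells and 4.85 against 4.79 CPM among G1 cells. Of the 15 leading lower genes, HJURP, VGF and MGP stayed below 1 in G1 cells, and all 15 did in S and in G2M cells. The comparison among G1 cells called 463 genes higher and 184 lower, and there the median log2 ratio over all genes was 0.16.

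All 45 genes called higher, the leading ones included, kept their side of 1 in all 3 phases, and 91 of the 206 genes called lower did. The phases split the same cells whose pooled ratio chose these genes, so this is a description. Among G1 cells 3872 of all 5678 tested genes had a ratio above 1 and 1806 below 1. By the 1.5-fold limit 12 genes were higher and 31 lower in all 3 phases. EIF4A3 had 207 against 90.2 CPM in G1, 201 against 110 CPM in S and 229 against 107 CPM in G2M. The nucleolar list had a median log2 ratio of 0.58 in G1, 0.32 in S and 0.36 in G2M, and the heat shock list had 0.78, 0.45 and 0.40. For MYC the difference was small in G1 (251 against 219 CPM) and larger in G2M (316 against 176 CPM). TRIM63 had 119 against 73.3 CPM in G1 and 111 against 43.7 CPM in S. VGF was low in each phase, with 165 against 869 CPM in G1, 154 against 897 CPM in S and 227 against 664 CPM in G2M. Among the ERK output genes 10 of 13 had a ratio below 1 in G1 cells, 9 in S cells and 10 in G2M cells.

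**Figure D4:**
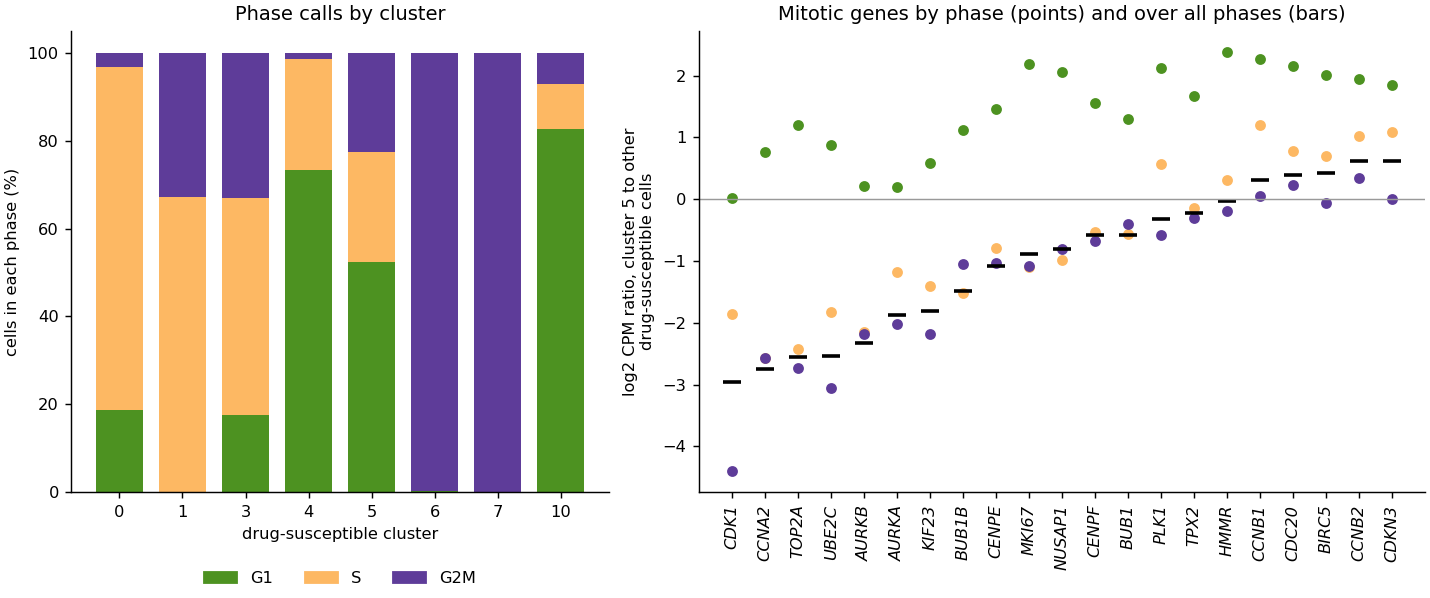
Left, share of cells (y axis, percent) called G1, S or G2M by the authors in each of the 8 drug-susceptible clusters (x axis); right, log2 CPM ratio of cluster 5 to the other drug-susceptible cells (y axis) for 21 mitotic genes (x axis) within each phase (points) and over all phases (bars). Cluster 5 held all 3 phases with 52.4% in G1, and the ratios among G1 cells were all above 0 on the log2 scale while most of those among S and G2M cells were below it.

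A grouping of the drug-susceptible cells that did not use the authors' clusters gave a partly different set of cells. With resolution 0.5 the best matching of 6 new clusters held 1019 of the 1118 cells (91.1%), but these made up 45.8% of its 2226 cells. With resolution 1 the best of 12 held 847 of them (75.8%), which made up 67.7% of its 1252 cells. The new cluster at resolution 1 had a log2 ratio of 1.22 for TRIM63, 0.76 for SLC45A2, 0.72 for MYC and 0.81 for HSP90AA1. It was 0.26 for RLBP1, 0.13 for CST1 and 0.23 for OSGIN1. At resolution 0.5 it was 0.94 for TRIM63, 0.65 for SLC45A2, 1.01 for MYC and 0.94 for HSP90AA1. There RLBP1 had 0.36, CST1 0.23 and OSGIN1 0.19.

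The treatment experiment and WM983B were clustered separately by the authors, so that their cluster numbers have no link to those above. In the untreated libraries of the treatment experiment no single cluster held the whole gene set of cluster 5. One cluster of 436 cells in r1 and 428 in r2, which the authors had also numbered 5, had 14 of the 15 leading higher genes above its other drug-susceptible cells in both replicates, with a median log2 ratio of 0.48 and 0.40, beside 0.09 and 0.10 over all genes. Of the leading lower genes 9 of 13 were below the other cells in each replicate (medians -0.30 and -0.24). Its TRIM63 level, with 48.9 and 60.7 CPM, was close to that of the largest cluster (53.7 and 54.9 CPM), whereas its MYC level was 307 and 308 CPM. Another, of 66 and 219 cells, had all 7 marker genes above the other cells in both replicates, with TRIM63 at 123 and 170 CPM and CST1 at 38.0 and 49.8 CPM. In it 8 and 11 of 14 leading higher genes were above the other cells, and 12 and 13 of 13 leading lower genes were below them (medians -2.06 and -2.56). MYC and HSP90AA1 were highest in the first of these clusters and TRIM63, CST1, OSGIN1, SLC45A2 and RLBP1 in the other, in both replicates. Both clusters were picked after their values were seen. The largest cluster, of 1798 and 1173 cells, had 11 of 14 and 12 of 15 leading higher genes above the other cells (medians 0.14 and 0.15). All 14 tested leading lower genes were below the other cells there in both replicates (medians -2.73 and -2.24). In the WM983B library the authors labelled 2 of 4 clusters as primed. Of the other 2, a cluster of 628 cells had TRIM63 at 35.3 CPM and MYC at 94.8 CPM, and one of 90 cells had 10.8 and 63.2 CPM. The primed clusters had TRIM63 at 5.7 CPM each. CST1 ran the other way, with 13.5 CPM in the cluster of 628 cells, 25.5 CPM in that of 90 cells and 33.3 and 76.9 CPM in the primed clusters. It is 1 library with no replicate.

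The genes of cluster 5 could be tested in the treatment experiment, whose 8 libraries were not used to define it. Counts were summed over all cells of a library and tested with edgeR's quasi-likelihood test across 18389 genes, with Benjamini-Hochberg adjustment and replicate as a block. Whether a summed count changed through fewer cells of a kind or through less RNA per cell cannot be told from these sums alone. The libraries held between 3692 and 6273 cells and between 70239657 and 122420544 UMIs. The 3 comparisons share the untreated libraries. With the PI3K inhibitor 1072 genes rose (5.83%) and 1256 fell (6.83%), with TGFB1 2990 rose (16.3%) and 2334 fell (12.7%), and with the TGFB receptor inhibitor 200 rose (1.09%) and 266 fell (1.45%).

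Under TGFB1, which binds its receptor to activate SMAD factors, 6 of the 7 marker genes fell and CST1 rose. TRIM63 had 52.3 and 62.7 CPM in the untreated libraries and 32.8 and 42.8 CPM with TGFB1 (r1 and r2). The groups did not overlap, and the log2 fold change was -0.61 ± 0.06 (SE, edgeR adjusted p = 1.2e-07). MYC had 173 and 162 CPM untreated and 89.8 and 94.3 CPM with TGFB1, a log2 fold change of -0.86 ± 0.07 (edgeR adjusted p = 1.70e-09). The log2 fold changes of SLC45A2, HSP90AA1, RLBP1 and OSGIN1 were -0.54, -0.56, -0.85 and -0.76, with edgeR adjusted p-values from 3.08e-09 to 1.76e-05. The TGFB1 libraries also held 1577 and 1757 primed cells, against 94 and 165 in the untreated ones. When only cells of the drug-susceptible clusters were summed, all 6 changes were smaller and still passed the test, with -0.27 for TRIM63, -0.24 for SLC45A2, -0.66 for MYC, -0.37 for HSP90AA1, -0.50 for RLBP1 and -0.51 for OSGIN1.

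Among the 15 leading higher genes TGFB1 lowered 6 and raised none, namely TRIM63, SLC45A2, HSP90AA1, PTTG1, ZFC3H1 and WDR3. WDR3 (log2 fold change -0.26, edgeR adjusted p = 0.00288) no longer passed the test among drug-susceptible cells only, with -0.12, nor without the first untreated library or the first TGFB1 library. The call of PTTG1 was lost without the first untreated library (-0.25) and that of ZFC3H1 without the first TGFB1 library (-0.23). EIF4A3 had 121 and 119 CPM untreated and 116 and 104 CPM with TGFB1 (edgeR adjusted p = 0.187). Of the 30 nucleolar and MYC target genes 14 fell and none rose, where 12.7% of all genes fell and 16.3% rose, with a median log2 fold change of -0.19, beside 0.01 over all genes. Among heat shock and HSP90 chaperone genes 4 of 24 rose and 6 fell, beside 16.3% and 12.7% of all genes, so the rising share was near the background.

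CST1 had the largest fold changes of the 7 marker genes with the PI3K inhibitor, TGFB1 and the receptor inhibitor. It had 5.33 and 10.0 CPM untreated, 33.7 and 52.5 CPM with the PI3K inhibitor, 28.0 and 26.4 CPM with TGFB1, and 2.63 and 6.26 CPM with the TGFB receptor inhibitor. All libraries with the PI3K inhibitor or TGFB1 were above all untreated ones. Its log2 fold change was 2.50 ± 0.16 with the PI3K inhibitor (edgeR adjusted p = 5.41e-10), 1.89 ± 0.16 with TGFB1 (edgeR adjusted p = 5.27e-09) and -0.79 ± 0.19 with the receptor inhibitor (edgeR adjusted p = 0.0208). The last call was lost without the replicate block, with DESeq2, without the second untreated library and without the first receptor inhibitor library, where the log2 fold change was -0.48. Among drug-susceptible cells only, the TGFB1 change was 0.77.

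The PI3K inhibitor GDC-0941 raised OSGIN1, from 12.1 and 11.8 to 19.6 and 18.1 CPM, with a log2 fold change of 0.65 ± 0.08 (edgeR adjusted p = 3.83e-06). It also raised RLBP1, from 53.9 and 55.1 to 79.2 and 84.5 CPM, with 0.59 ± 0.07 (edgeR adjusted p = 4.36e-06). TRIM63 (0.08 ± 0.06), SLC45A2 (-0.02 ± 0.06), MYC (0.08 ± 0.07) and HSP90AA1 (-0.20 ± 0.08) did not pass the test. Of the leading higher genes PTTG1 fell (-0.26 ± 0.07, edgeR adjusted p = 0.0127) and the other 14 did not pass, near the background of 6.83% falling. Of 22 mitotic genes 16 fell and none rose, where 6.83% of all genes fell and 5.83% rose, with a median log2 fold change of -0.25, and 5 of the 15 leading lower genes fell, namely CDK1, TOP2A, CKAP2L, HIST1H1A and MGP. The calls of PTTG1 and of these 5 genes were lost without the replicate block, and each was lost when at least the second PI3K inhibitor library was left out. MGP in drug-susceptible cells only was -0.27 and did not pass.

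Under the TGFB receptor inhibitor LY2109761 few of these genes moved. MYC fell from 173 and 162 to 144 and 127 CPM (-0.31 ± 0.07, edgeR adjusted p = 0.0131), and OSGIN1 rose from 12.1 and 11.8 to 14.3 and 15.5 CPM (0.32 ± 0.08, edgeR adjusted p = 0.0249), both calls being lost without the replicate block, without either untreated library and without the second receptor inhibitor library. None of the 15 leading higher genes passed the test, where 1.09% of all genes rose and 1.45% fell, so this lies near the background. VGF, the gene most reduced in cluster 5 outside the cell cycle, rose from 793 and 1311 to 1454 and 2356 CPM (0.86 ± 0.13, edgeR adjusted p = 0.000278), and with TGFB1 it fell to 326 and 801 CPM (-0.97 ± 0.13, edgeR adjusted p = 3.06e-06). In both comparisons its call was lost without the replicate block, and VGF was higher in r2 than in r1 under every treatment. MGP rose with TGFB1, from 10.6 and 19.6 to 43.8 and 41.4 CPM (1.54 ± 0.13, edgeR adjusted p = 2.21e-09). Of the mitotic leading lower genes HJURP, FAM83D, TOP2A, UBE2C and CKAP2L rose with TGFB1 by log2 fold changes from 0.17 to 0.34. Over all genes 16.3% rose, and these calls were not firm. Among drug-susceptible cells only FAM83D passed, and its call was lost without the replicate block and without the second untreated library. Over all alternatives the call was lost in 10 settings for TOP2A, 8 for HJURP, 3 for UBE2C and 2 each for FAM83D and CKAP2L.

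**Figure D5:**
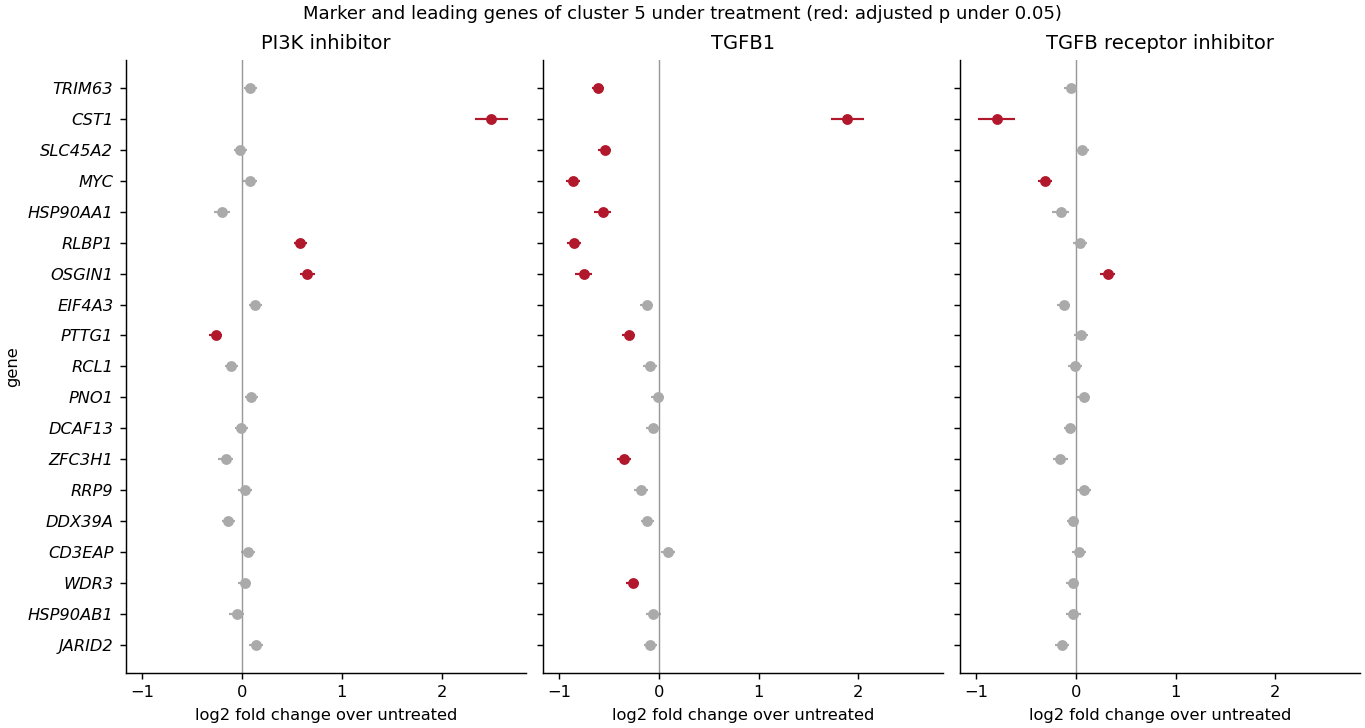
log2 fold change over untreated libraries (x axis, with the standard error as a bar) of the marker and leading higher genes of cluster 5 (y axis) in 3 treatments of WM989, each from 2 libraries against 2, with an edgeR adjusted p under 0.05 in red. CST1 rose with the PI3K inhibitor and TGFB1 and fell with the receptor inhibitor, whereas the other 6 marker genes fell with TGFB1.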

How the data were processed

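Single-cell RNA libraries of WM989 and WM983B cells were aligned to hg38 with Cell Ranger (version not given in the sources used here), and the authors filtered cells by gene number and mitochondrial share in Seurat. The deposited matrices hold UMI counts per gene and cell, not normalized. Cluster numbers, priming labels, wells, replicates and phase calls were taken from the authors' deposited cell table, as was the mitochondrial percent of each cell. No doublet caller was run here, since the authors had removed cells with very many genes. Peak files, signature scores and the authors' own comparisons were not used, and the lineage of each cell was not analysed here. The sterol and fatty acid synthesis list is not reported here.

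Counts were summed by cluster and well and scaled to CPM (Python 3.11.15, numpy 2.4.6, pandas 2.3.3, scipy 1.17.1). A gene was called in cluster 5 past 1.5-fold with one direction in each of the 6 wells of at least 20 cluster 5 cells, among genes of at least 20 CPM. The members and the gene lists were chosen with earlier results of these data known. The genes named are the 7 markers, the 15 called genes with the highest and the 15 with the lowest ratio, and called or defining members of the lists. Exact 95% intervals were Clopper-Pearson for shares and Poisson for sums. Cells were thinned to 10000 UMIs for shares of cells and phase. New clusters used 2000 variable genes, 30 components and 20 neighbours (scanpy 1.11.5, igraph 0.11.9). Figures used matplotlib 3.10.9.

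The 8 treatment libraries were tested with edgeR 4.0.16 (R 4.3.3; quasi-likelihood, TMM, adjusted p under 0.05) with replicate as a block, leaving 3 residual degrees of freedom, and DESeq2 1.42.0 was an alternative. The standard error is the log2 fold change divided by the root of its F. Replicate numbers mark cells split from the same starting well, and the differences of r2 from r1 correlated between treatments with r from 0.256 to 0.365. Within a replicate each condition had its own plate, and the p-values measure the spread between these libraries. The tests were tried on simulated data first. Alternatives were another CPM limit, fold, scaling, weighting, thinning, phase, replicate or clustering, and leaving out each well or library.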

Additional observations from a re-analysis of the deposited data

Results flagged for a closer look

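Among 36 groups of wells, 3 held a well far from the others by Dixon's criterion. The gene ratios covered the 6 wells with at least 20 cluster 5 cells, and the cluster 5 share and G1 share all 8 wells. Independent wells would meet the criterion in about 1 of 20 groups, but these wells share cultures. The values are log2 ratios of cluster 5 to the other drug-susceptible cells. RLBP1 was 1.13 in well 2, above the other wells. RCL1 was 0.56 in well 8, below the other wells. JARID2, a Polycomb cofactor gene, was 1.28 in well 6, above the other wells.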

How the results depend on the processing

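Of the alternatives in the untreated experiment, 61 values of counts and shares were rated as close to those reported and 10 as moved. The rating was wide, since 30 genes higher in r2 only, 31 with equal weight per well and 67 with a limit of 5 CPM were rated close to 45. The 45 genes called higher became 463 in G1 cells only, 2 at a 2-fold limit, 0 against every other cluster and 95 for the cells clustered anew at resolution 0.5. In G1 cells wells 2 and 6 fell under 20 cluster 5 cells, so fewer wells had to agree. The 206 called lower became 484 with a limit of 5 CPM, 76 with 50 CPM, 89 at 2-fold, 9 against every other cluster and 123 at resolution 0.5. The G1 share of 52.4% became 39.0% when phase was called anew on thinned cells. Leaving out each well gave 35 to 52 genes higher, 203 to 221 lower, a cluster 5 share of 10.96 to 12.0% and a G1 share of 51.7 to 53.4%. The cause of these changes was not tested.

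In the treatment experiment the counts depended on the replicate block and on single libraries. Without the replicate block, the PI3K inhibitor gave 261 genes higher and 388 lower, TGFB1 gave 1438 lower, and the receptor inhibitor gave 11 higher and 29 lower. DESeq2 gave 680 higher with the PI3K inhibitor, 1983 with TGFB1 and 124 with the receptor inhibitor, and no filter on low counts gave 349 higher with the receptor inhibitor. Drug-susceptible cells only gave 1533 higher and 1132 lower with TGFB1. Leaving out each library gave 259 to 1539 genes higher and 460 to 1781 lower with the PI3K inhibitor, 1971 to 3440 and 1193 to 2971 with TGFB1, and 61 to 568 and 107 to 578 with the receptor inhibitor. The PI3K inhibitor counts were lowest without its second library (259 and 460), TGFB1 without its first (1971 and 1193), and the receptor inhibitor without the second untreated library (61 and 107), while its counts were 568 and 578 without its own first library. For single genes 380 values kept direction and side of the threshold, 74 lost the call and 2 reversed, both of them uncalled: SLC45A2 with the PI3K inhibitor ran from -0.101 to 0.0518 (reversed without PI3K inhibitor replicate 2), and RLBP1 with the receptor inhibitor from -0.0693 to 0.158 (reversed without its replicate 1). The calls of the 7 markers under TGFB1, and of CST1, RLBP1 and OSGIN1 under the PI3K inhibitor, held in each alternative run. With 7 and 19 cluster 5 cells, wells 1 and 5 limit what their values show.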
